A study of Rattus norvegicus with 11 samples.

Results

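Transcripts of 44 genes that encode voltage- and calcium-gated potassium channel subunits and their partner proteins were followed in cultured rat dorsal root ganglion (DRG) neurons. The genes were taken as a list, whatever their values, and every one with a row in the expression table was kept. That left 42 genes of the 22076 with values. Kcnb2 (a Kv2 pore subunit) and Kcnd2 (a Kv4 pore subunit) had no row under these names and are not analysed here. The neurons came from Sprague-Dawley rat embryos at embryonic day 15, wild type per the labels, and were purified by immunopanning, which captures cells on antibody-coated plates. One group of 4 cultures received SCCM (Schwann cell conditioned medium, in which the myelinating glia of peripheral nerve had been grown), a second group of 4 received prostaglandin E2 (PGE2) at 1 µM, and 3 cultures were untreated. Cultures were treated overnight on day 13 in vitro, and their RNA was collected on day 14. Embryos of 1 pregnant rat, 10 to 18 of them, were pooled for an experiment and counted as 1 biological replicate.

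Voltage-gated potassium (Kv) channels open when a neuron depolarises and let potassium leave the cell, which ends the action potential and limits how often the next one can follow. Kv1 channels act near threshold along axons, Kv3 channels repolarise the spike, Kv4 channels carry a rapidly inactivating current that delays firing, and Kv7 channels carry the slow M-current that holds the cell near rest. Calcium-gated BK and SK channels couple potassium efflux to the calcium that enters during a spike. Pore-forming subunits assemble with partners, such as the Kv beta subunits, the calcium-binding KChIP proteins (Kcnip genes) and the dipeptidyl peptidase-like proteins Dpp6 and Dpp10, which change gating and surface expression. In sensory neurons these currents set excitability, and PGE2 is known as an inflammatory mediator that sensitises sensory neurons through receptors coupled to cAMP.

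The deposited unit is FPKM, fragment counts corrected for transcript length and for library size, so levels can be compared between genes per length. Of the 42 genes, 29 averaged 1 FPKM or more over the 11 libraries and entered the test, and the other 13 did not. Tests used limma on log2(FPKM + 1) with Benjamini-Hochberg adjustment over 12107 genes, and calls were made at an adjusted p under 0.05. Log2 changes below are on that scale, which understates the change of low genes. In Kcns3, Kcnt1 and Kcnt2 the mean of at least 1 group was below 1 FPKM, so these 3 passed the filter through the groups in which they were higher.

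The 11 libraries did not fall apart by treatment. On the first principal component of the other 12078 tested genes, which held 56.0% of the variance, SCCM replicates 2 and 3 and PGE2 replicates 3 and 4 scored between 39.9 and 55.7, while the other 7 libraries scored between -60.6 and 7.70. Untreated replicate 3 had the lowest score. Relative depth, read from the FPKM steps of rarely seen genes, differed by at most 1.31-fold between libraries. Transcripts of DRG neurons were abundant in every library (22 of 22 marker genes detected, with the class III tubulin gene Tubb3 at a mean of 1276 FPKM), and their summed level was 7849 to 12041 FPKM in SCCM, 9709 to 10689 in PGE2 and 5609 to 10246 in untreated libraries. Several defining markers of other cells were at or near 0: the Schwann cell gene Sox10 did not exceed 0.07 FPKM and the fibroblast gene Col1a1 0.17, and the leukocyte gene Ptprc was listed at 0 throughout. Other markers were not: the lysosomal macrophage marker Cd68 averaged 3.77 FPKM in SCCM, 4.21 in PGE2 and 22.4 in untreated libraries, and over the 11 libraries the cholinergic gene Slc5a7 had 6.54 to 37.9 FPKM, the GABA-synthesis gene Gad1 6.35 to 28.5, the skeletal actin gene Acta1 3.25 to 15.1, and the glial genes S100b, Apoe and Egr2 reached 9.23, 9.20 and 3.26 FPKM. Below 1 FPKM in every library were 13 of 26 glial, 12 of 14 fibroblast, 11 of 13 endothelial, 12 of 14 macrophage, 6 of 8 muscle and 10 of 14 spinal cord and central glial markers. Summed glial markers, mostly Gap43, Cadm4 and Ngfr, came to 962 to 1259 FPKM in SCCM, 896 to 1122 in PGE2 and 747 to 1030 in untreated libraries.

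In 12 tested genes, the 4 libraries at the positive end of the first component were above all others. Promoter windows are shown for 3 of these genes: Kcna2 (a Kv1 pore subunit), Kcnip3 (a KChIP) and Kcnq5 (a Kv7 pore subunit). Each holds 250 bases before and 50 after the annotated start, from RefSeq on the build GRCr8, which differs from the build of the expression table. Kcna2 lies at chr2:197393280-197393579 on the plus strand, Kcnip3 at chr3:135195361-135195660 on the minus strand and Kcnq5 at chr9:31891232-31891531 on the minus strand. The sequences run 5′ to 3′ in the direction of the gene, with capitals for the GC box GGGCGG and the cAMP response element core TGACG on either strand (overlapping matches are joined).
Kcna2: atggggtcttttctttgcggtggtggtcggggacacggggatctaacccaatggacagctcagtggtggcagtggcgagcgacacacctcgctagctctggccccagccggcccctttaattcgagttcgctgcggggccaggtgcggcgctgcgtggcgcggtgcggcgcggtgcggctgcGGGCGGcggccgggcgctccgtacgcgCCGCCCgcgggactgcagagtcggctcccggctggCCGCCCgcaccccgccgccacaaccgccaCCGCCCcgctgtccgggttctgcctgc
Kcnip3: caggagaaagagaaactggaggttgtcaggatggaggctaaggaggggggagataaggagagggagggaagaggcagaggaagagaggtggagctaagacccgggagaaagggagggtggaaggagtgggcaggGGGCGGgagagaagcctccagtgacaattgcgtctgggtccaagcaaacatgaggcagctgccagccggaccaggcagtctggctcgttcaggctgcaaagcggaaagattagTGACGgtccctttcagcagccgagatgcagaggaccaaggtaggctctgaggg
Kcnq5: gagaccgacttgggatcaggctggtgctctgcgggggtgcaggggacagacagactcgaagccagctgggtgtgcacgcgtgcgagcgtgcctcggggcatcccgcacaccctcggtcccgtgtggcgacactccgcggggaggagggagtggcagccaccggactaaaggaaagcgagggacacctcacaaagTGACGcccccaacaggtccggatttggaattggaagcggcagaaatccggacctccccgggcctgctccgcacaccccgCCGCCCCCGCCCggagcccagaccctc
Among the 42 genes, 34 had a window in the RefSeq table, with 39 windows in all because some genes have several starts. The GC box, to which Sp-family factors bind, was present in 25 of the 39 windows (64.1%), against 33.1% of all 33469 windows of this length. Median GC content was 66.0% in the 39 windows and 51.7% in all windows. The full cAMP response element TGACGTCA was in 0 of 39 windows and in 1.83% of all. Its core TGACG was in 5 windows (12.8%), those of Kcnab1, Kcnip3, Kcnn2, Kcnq5 and Kcnt1, against 21.2% of all. Of the 12 genes from which the 3 shown were taken, only Kcnip3 and Kcnq5 had the core in a window. The 3 shown therefore do not represent the 12. The TATA sequence TATAAA was in 0 of 39 windows and in 14.2% of all.

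Levels differed widely between the genes. Means over 11 libraries were above 20 FPKM for 10 genes, between 5 and 20 for Kcnc1 and Kcnh6, between 1 and 5 for 17 genes, between 0.1 and 1 for 9 genes and below 0.1 for Kcng1, Kcns2, Kcng4 and Kcnmb1. The most abundant transcript per length was Kcnab1 at a mean of 81.2 FPKM, followed by Dpp6 at 55.7, Kcna6 at 47.7, Kcna1 at 42.9 and Kcnd1 at 38.9. So the leading transcripts were 2 partners and the main pore subunits of the Kv1 and Kv4 families that those partners bind. Summed over the 42 genes, the level was 373, 672, 626 and 347 FPKM in SCCM replicates 1 to 4, 391, 374, 750 and 722 FPKM in PGE2 replicates 1 to 4, and 463, 362 and 223 FPKM in untreated replicates 1 to 3. The 4 libraries at the positive end of the first component had the 4 highest sums, and untreated replicate 3 the lowest. The sum averaged 505 ± 168 FPKM in SCCM and 559 ± 205 FPKM in PGE2 libraries (SD, n = 4 each), and 349 ± 120 FPKM in untreated libraries (SD, n = 3), so the groups overlapped.

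**Figure D1:**
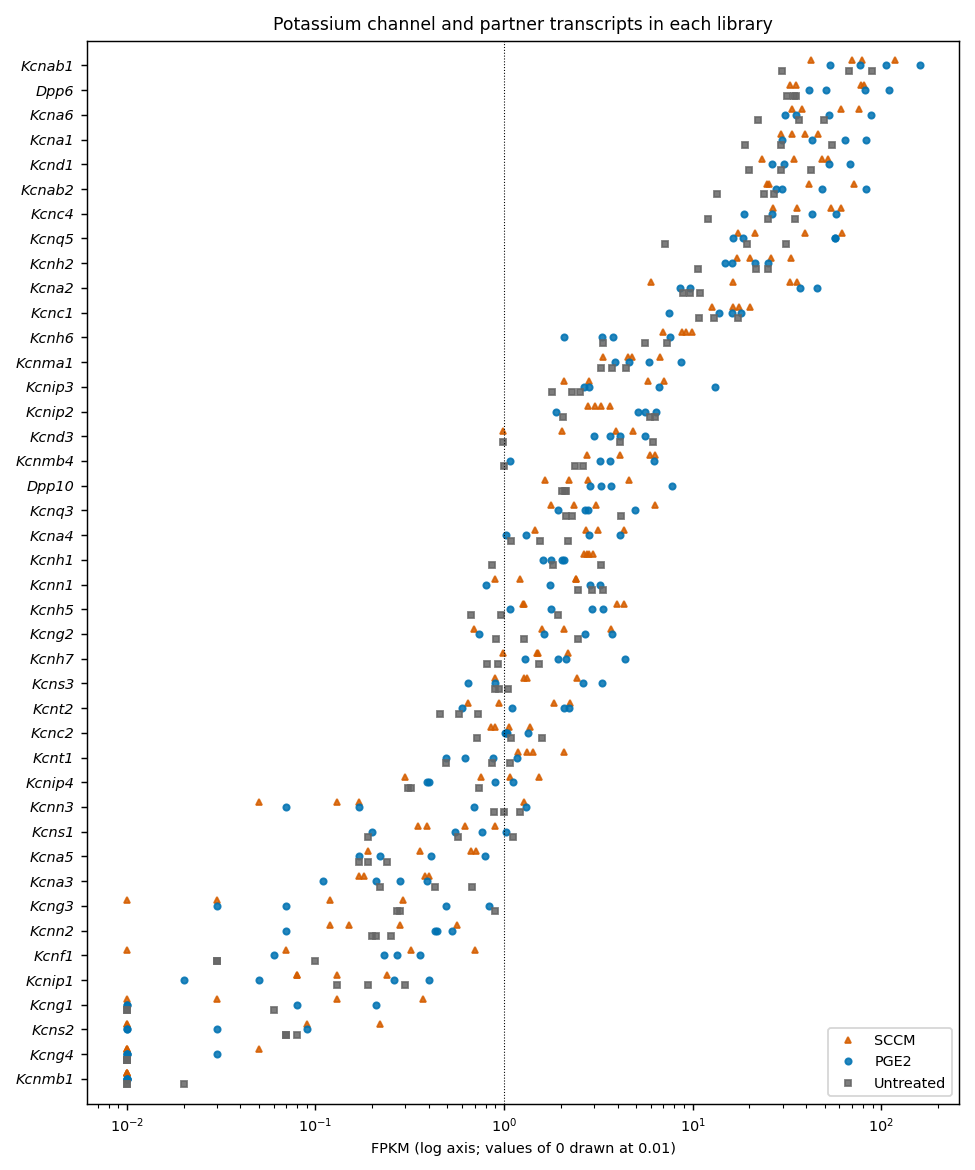
FPKM of the 42 genes (log axis, values of 0 drawn at 0.01) in each of 11 libraries, ordered by mean level, with SCCM as triangles, PGE2 as circles and untreated as squares. The dotted line marks the 1 FPKM of the filter, which 29 genes passed on their mean.

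**Figure D2:**
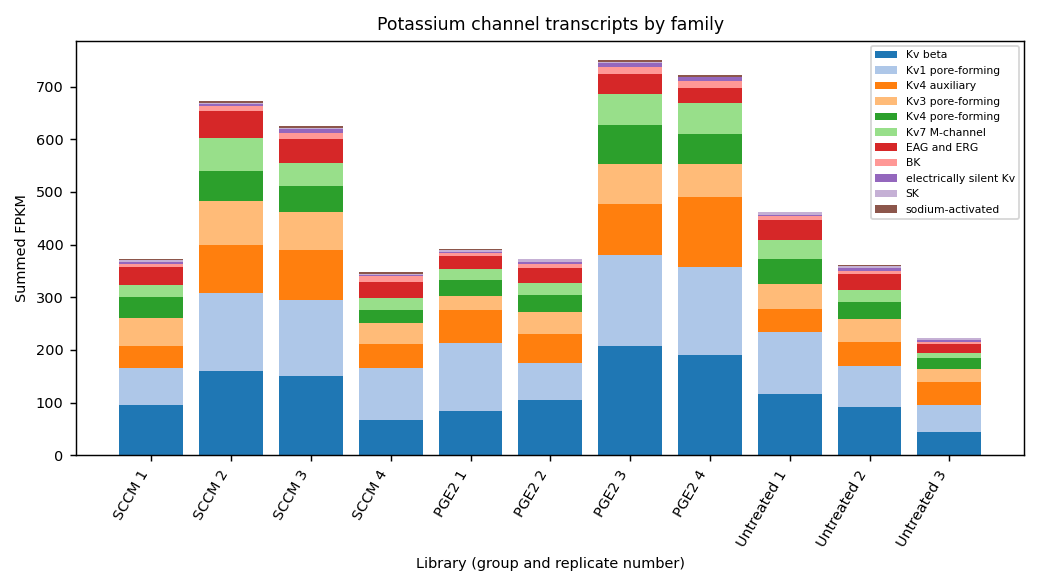
Summed FPKM of each channel family in each library as stacked bars. The bars of SCCM 2 and 3 and PGE2 3 and 4 are the tallest, between 626 and 750 FPKM, and that of untreated 3 is the shortest at 223 FPKM.

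No gene of the list passed the adjusted threshold in any comparison. For SCCM against untreated, 0 of 29 were called, where 0% of all 12107 genes were, and 25 of 29 had a positive log2 change, where 38.7% of all genes had one. The median log2 change was 0.36 for the 29 genes and -0.13 for all genes. Among DRG neuron markers, 17 of 21 tested were positive, with a median of 0.44. At an unadjusted p under 0.05 stood 1 gene higher and 0 lower, where 4.85% of all genes were higher and 8.76% lower. For PGE2 against untreated, 0 of 29 were called (0% of all genes), 24 of 29 changes were positive (32.9% of all genes), and the medians were 0.46 for the 29 genes and -0.16 for all genes; of the DRG neuron markers, 16 of 21 were positive with a median of 0.41. Here 4 genes were higher at an unadjusted p under 0.05 and 0 lower, where 1.68% of all genes were higher and 4.04% lower. These comparisons share the 3 untreated libraries, and what is low in those libraries enters both. In bulk RNA, fewer cells of a type and less RNA per cell cannot be told apart. For SCCM against PGE2, 0 of 29 were called (0.00826% of all genes, 1 gene), 11 of 29 changes were positive (53.4% of all genes), and the medians were -0.06 and 0.02. At an unadjusted p under 0.05, 2 genes were higher (1 of them Kcnt1, which passed the filter through SCCM) and 0 lower, where 2.51% of all genes were higher and 0.768% lower.

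Library differences within a treatment were large beside these values. The median SD of log2(FPKM + 1) within a group was 0.46 for the 29 genes and 0.30 for all genes among SCCM libraries, 0.61 and 0.36 among PGE2 libraries, and 0.42 and 0.29 among untreated libraries. In 19 of 29 genes, SCCM replicates 2 and 3 were the 2 highest SCCM libraries, which held for 13.6% of all tested genes. In 21 of 29, PGE2 replicates 3 and 4 were the 2 highest PGE2 libraries, against 19.2% of all. Instead, these replicates were the 2 lowest of their treatment in 2 genes, Kcnip2 and Kcnn1. That order held for 42.9% of all tested genes in SCCM and 41.8% in PGE2. Untreated replicate 3 was the lowest untreated library in 24 of 29 genes, against 38.4% of all. In 12 genes (Kcna2, Kcna6, Kcnc4, Kcnd1, Kcns3, Kcnq5, Kcnh5, Kcnab2, Kcnip3, Dpp6, Kcnma1 and Kcnt2) these 4 treated libraries were above all other 7, which held for 5.23% of all tested genes. For Kcns3 and Kcnt2 this order is a description only, as both passed the filter through the treated groups, which hold these libraries. The opposite order was found in 1 tested gene, Kcnn1, and in 19.0% of all. Summed DRG neuron markers were 10651 to 12041 FPKM in the 4 libraries and 5609 to 10637 FPKM in the other 7. Summed macrophage and immune markers, mostly Cd68, were 0.19 to 0.51 FPKM in the 4 libraries and 0.92 to 46.3 FPKM in the other 7. The part of either in these results was not tested. Leaving out the 4 libraries, all treated and picked after seeing the data, lowers the treated means of the 12 genes by construction. Such values, here and for single genes below, are therefore not an independent check. Without the 4 libraries, 22 of 29 changes were positive for SCCM against untreated, with a median of 0.096. For PGE2 against untreated 18 of 29 were positive, with a median of 0.045. Without untreated replicate 3 alone, these medians were 0.25 and 0.23.

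**Figure D3:**
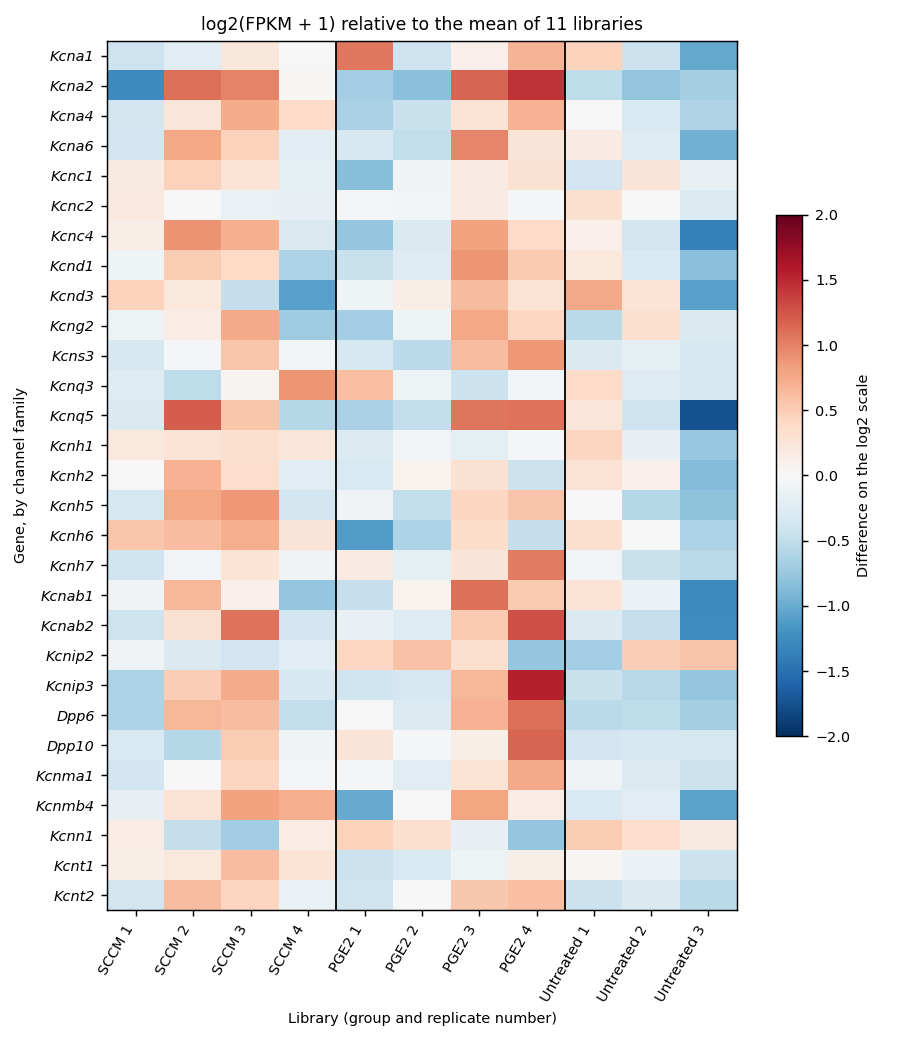
Difference of log2(FPKM + 1) from the mean of 11 libraries for the 29 tested genes, with libraries in columns (vertical lines separate SCCM, PGE2 and untreated) and genes in rows by family; red is above and blue below the mean. Columns SCCM 2 and 3 and PGE2 3 and 4 are mostly red, untreated 3 is mostly blue, and Kcnn1 runs the other way. Kcnip2 also has these columns as the lowest within each treatment.

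**Figure D4:**
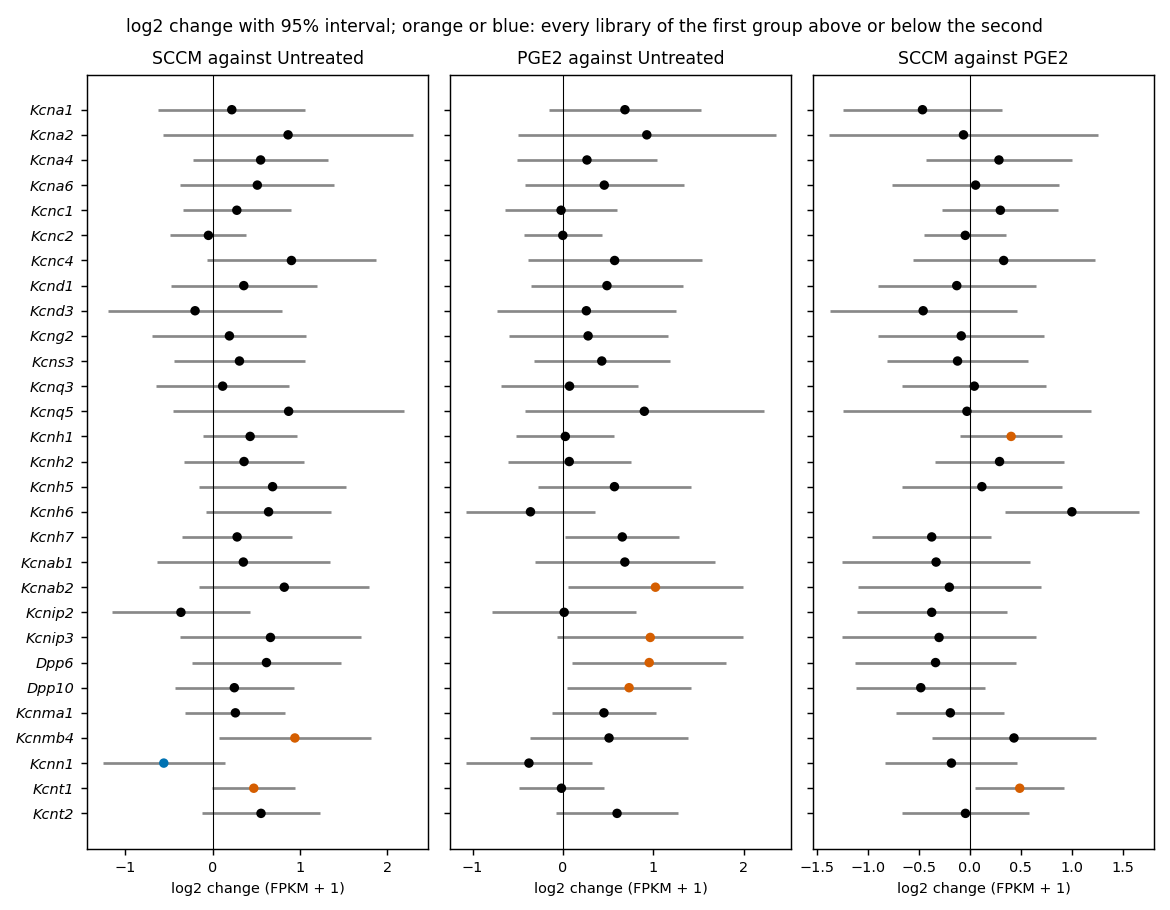
Log2 change of FPKM + 1 (points) with its 95% limma interval (lines) for the 29 tested genes in each comparison, positive where the first group of the panel title is higher. Orange marks genes whose libraries were all above the other group (2, 4 and 2 genes from left to right). Of all tested genes, 4.72%, 1.75% and 1.59% had that order. Kcnt1, orange in the left and right panels, passed the filter through its SCCM level alone. Blue marks the 1 gene, Kcnn1, whose SCCM libraries were all below the untreated ones, where 5.87% of all genes had that order.

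Among Kv1 pore subunits, which sit along axons beside the nodes, Kcna6, Kcna1 and Kcna2 carried most of the level. Kcna6 had 33.6, 76.1, 60.9 and 38.2 FPKM in SCCM, 35.2, 30.9, 87.8 and 53.1 FPKM in PGE2, and 49.5, 36.7 and 22.2 FPKM in untreated libraries. Its groups overlapped, and the log2 changes of Kcna6 against untreated were 0.51 ± 0.40 (SE) for SCCM and 0.46 ± 0.40 for PGE2. They were 0.21 and 0.15 without untreated replicate 3, and 0.057 and -0.057 without the 4 libraries. Kcna1 had 29.5, 33.7, 46.3 and 39.2 FPKM in SCCM, 83.2, 29.6, 42.8 and 63.9 FPKM in PGE2, and 55.02, 29.3 and 19.0 FPKM in untreated libraries. For this gene, mutated in a human episodic ataxia, the highest library was PGE2 replicate 1. Its order across libraries was not that of Kcna6 or Kcna2. Kcna2, the usual axonal partner of Kcna1, had 6.03, 35.7, 32.7 and 16.4 FPKM in SCCM, 9.67, 8.57, 37.0 and 45.4 FPKM in PGE2, and 10.99, 8.89 and 9.72 FPKM in untreated libraries. Within each treatment, 2 libraries stood at 32.7 FPKM or more, and the others at 16.4 FPKM or less. The share of Kcna2 in the Kv1 sum ran from 8.47% to 24.0% in SCCM, 7.47% to 27.1% in PGE2 and 9.26% to 18.5% in untreated libraries. Kcna4, an inactivating Kv1 subunit, averaged 2.91 ± 1.18 FPKM in SCCM and 2.32 ± 1.44 in PGE2 (SD, n = 4 each), and 1.61 ± 0.55 in untreated libraries (SD, n = 3). Kcna3 and Kcna5 did not exceed 0.79 FPKM.

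The Kv beta subunits, cytoplasmic partners of Kv1 channels, had the largest family sum, 118 ± 43.98 FPKM in SCCM, 147 ± 61.6 in PGE2 and 83.7 ± 37.1 in untreated libraries. Kcnab1, whose product can make Kv1 channels inactivate, had 70.2, 118, 79.0 and 42.3 FPKM in SCCM, 53.4, 77.3, 160 and 106 FPKM in PGE2, and 89.3, 67.7 and 29.9 FPKM in untreated libraries, with overlap between all groups. Kcnab2, which promotes axonal targeting of Kv1 channels, had 24.9, 41.5, 71.6 and 25.4 FPKM in SCCM, 29.9, 27.8, 48.3 and 83.1 FPKM in PGE2, and 27.0, 23.9 and 13.4 FPKM in untreated libraries. All PGE2 libraries were above all untreated ones, though PGE2 replicate 2 exceeded untreated replicate 1 by less than 1 FPKM. The log2 change for PGE2 was 1.02 ± 0.44 (SE, unadjusted p = 0.041, adjusted p = 0.538), and 0.47 without the 4 libraries. For SCCM it was 0.82 ± 0.44 (unadjusted p = 0.091, adjusted p = 0.368), and 0.28 without them.

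The Kv4 partners Dpp6, Dpp10 and Kcnip3 averaged higher in both PGE2 and SCCM than in untreated libraries, without being called. For SCCM the log2 changes of Dpp10 and Kcnip3 were 0.25 ± 0.31 and 0.66 ± 0.47 (SE), with overlap. The main pore gene was Kcnd1, with 34.3, 52.4, 48.2 and 23.3 FPKM in SCCM, 26.4, 30.4, 68.2 and 53.0 FPKM in PGE2, and 42.3, 29.4 and 20.01 FPKM in untreated libraries. It supplied 87.4% to 95.9% of the Kcnd1 and Kcnd3 sum in every library, and its groups overlapped. Kcnd3 averaged 2.95 ± 1.75 FPKM in SCCM, 4.08 ± 1.11 in PGE2 and 3.75 ± 2.59 in untreated libraries. Dpp6, a membrane protein that carries Kv4 channels to the surface and speeds their gating, had 32.7, 80.8, 78.1 and 35.5 FPKM in SCCM, 50.9, 41.4, 82.2 and 110 FPKM in PGE2, and 34.5, 35.1 and 31.5 FPKM in untreated libraries. The untreated libraries were close together, every PGE2 library was above them, and SCCM replicates 1 and 4 were at their level. The log2 change for PGE2 was 0.95 ± 0.39 (SE, 95% interval 0.10 to 1.81, unadjusted p = 0.031, adjusted p = 0.538), and 0.44 without the 4 libraries. For SCCM it was 0.62 ± 0.39, and 0.02 without them.

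Dpp10, a second protein of the Dpp6 type, had 2.21, 1.65, 4.61 and 2.77 FPKM in SCCM, 3.70, 2.87, 3.28 and 7.81 FPKM in PGE2, and 2.02, 2.12 and 2.11 FPKM in untreated libraries. All PGE2 libraries were above the untreated range, which spanned 0.1 FPKM, and the change was 0.73 ± 0.31 (SE, unadjusted p = 0.038, adjusted p = 0.538). Without the 4 libraries it was 0.47. Against PGE2, the SCCM libraries differed by -0.48 ± 0.29 (adjusted p = 1.00) and overlapped. Kcnip3, the KChIP also known as the transcriptional repressor DREAM, had 2.09, 5.79, 7.06 and 2.83 FPKM in SCCM, 2.66, 2.81, 6.64 and 13.1 FPKM in PGE2, and 2.53, 2.28 and 1.80 FPKM in untreated libraries. Every PGE2 library again lay above the untreated ones, by little in replicates 1 and 2, and the change of 0.97 ± 0.47 (unadjusted p = 0.064, adjusted p = 0.538) was 0.23 without the 4 libraries. Kcnip2 did not share this order, at 3.19 ± 0.37 FPKM in SCCM, 4.75 ± 1.97 in PGE2 and 4.77 ± 2.35 in untreated libraries. Kcnip4 reached at most 1.53 FPKM and Kcnip1 at most 0.40. Dpp6 made up 74.5% to 87.7% of the Kv4 partner sum in all 11 libraries, and that sum averaged 68.3 ± 28.6 FPKM in SCCM, 87.4 ± 36.4 in PGE2 and 43.4 ± 2.29 in untreated libraries.

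Kv3 subunits, which give the fast repolarisation of narrow spikes, were led by Kcnc4, the inactivating member. Kcnc4 had 35.7, 61.4, 53.8 and 26.5 FPKM in SCCM, 18.6, 26.3, 57.8 and 42.8 FPKM in PGE2, and 35.0, 25.1 and 12.1 FPKM in untreated libraries. The change for SCCM against untreated was 0.90 ± 0.44 (SE, unadjusted p = 0.064, adjusted p = 0.357), with overlap at untreated replicate 1, and 0.46 without the 4 libraries. Kcnc1 had 16.5, 20.2, 17.5 and 12.7 FPKM in SCCM, 7.53, 13.7, 16.2 and 18.0 FPKM in PGE2, and 10.8, 17.4 and 12.9 FPKM in untreated libraries. It was the most even of the 12 most abundant genes, 2.69-fold between its lowest and highest library. Kcnc2 stayed between 0.72 and 1.59 FPKM.

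Of the M-channel subunits, Kcnq5 was the main one among the genes followed, with 73.5% to 97.2% of the sum of Kcnq3 and Kcnq5. It had 21.4, 62.0, 39.4 and 17.4 FPKM in SCCM, 16.4, 18.5, 56.7 and 57.2 FPKM in PGE2, and 31.3, 19.4 and 7.14 FPKM in untreated libraries. The highest and lowest libraries differed 8.69-fold, the widest range of the 12 most abundant genes, and changes against untreated were 0.87 ± 0.60 (SE) for SCCM and 0.90 ± 0.60 for PGE2, with all groups overlapping. For Kcnq5 these were 0.32 and 0.35 without untreated replicate 3, and 0.21 and 0.074 without the 4 libraries. Kcnq3 averaged 3.37 ± 2.01 FPKM in SCCM, 3.10 ± 1.31 in PGE2 and 2.86 ± 1.13 in untreated libraries.

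Of the EAG and ERG subunits (Kcnh genes), the ERG channels are known to dampen repeated firing. Kcnh6, an ERG channel gene, had 8.74, 9.24, 9.96 and 6.99 FPKM in SCCM, 2.08, 3.32, 7.57 and 3.79 FPKM in PGE2, and 7.28, 5.61 and 3.36 FPKM in untreated libraries. Of the PGE2 libraries, replicate 3 reached into the SCCM range and the other 3 were below it. The difference of SCCM from PGE2 was 1.00 ± 0.30 (SE, 95% interval 0.34 to 1.66, unadjusted p = 0.0064, adjusted p = 1.00), the lowest unadjusted p of the 29 genes in any comparison, and it was 1.27 without the 4 libraries. Against untreated, SCCM differed by 0.64 ± 0.32 (adjusted p = 0.357) and PGE2 by -0.36 ± 0.32. Leaving out 1 library gave 0.39 (without untreated replicate 3) to 0.85 for SCCM and -0.63 (without PGE2 replicate 3) to -0.14 (without PGE2 replicate 1) for PGE2, and PGE2 differed by -0.77 without the 4 libraries. As a share of the 5 Kcnh genes, Kcnh6 came to 18.2% to 25.9% in SCCM, 8.81% to 19.1% in PGE2 and 18.1% to 20.5% in untreated libraries.

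Kcnh1, an EAG channel gene, had 2.64, 2.82, 2.96 and 2.74 FPKM in SCCM, 1.60, 2.03, 1.78 and 2.07 FPKM in PGE2, and 3.26, 1.81 and 0.86 FPKM in untreated libraries. SCCM and PGE2 libraries were each close together and did not overlap, while the untreated ones spanned both. The difference of SCCM from PGE2 was 0.40 ± 0.23 (unadjusted p = 0.104, adjusted p = 1.00), and 0.39 without the 4 libraries. The spread pooled over the groups includes the untreated libraries, where the SD of Kcnh1 was 1.21 FPKM, against 0.14 in SCCM and 0.22 in PGE2. Kcnh7, a second ERG gene that is mainly neuronal, had 0.99, 1.52, 2.17 and 1.5 FPKM in SCCM, 1.93, 1.29, 2.13 and 4.36 FPKM in PGE2, and 1.53, 0.93 and 0.81 FPKM in untreated libraries. For PGE2 against untreated its change was 0.66 ± 0.29 (unadjusted p = 0.043, adjusted p = 0.538), with overlap, and 0.33 without the 4 libraries. SCCM differed from PGE2 by -0.38 ± 0.27 for this gene. Kcnh2, the main ERG gene and the largest of the family, had 20.1, 33.3, 26.1 and 17.2 FPKM in SCCM, 16.2, 21.4, 25.1 and 14.8 FPKM in PGE2, and 25.04, 21.7 and 10.7 FPKM in untreated libraries, with overlap throughout. Kcnh5 averaged 2.71 ± 1.67 FPKM in SCCM, 2.29 ± 1.05 in PGE2 and 1.19 ± 0.66 in untreated libraries.

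Of the calcium-gated channels, the BK pore gene Kcnma1 averaged 4.83 ± 1.38 FPKM in SCCM, 5.76 ± 2.12 in PGE2 and 3.79 ± 0.58 in untreated libraries. Kcnmb4, the neuronal BK beta subunit that slows channel activation, had 2.75, 4.11, 6.32 and 5.91 FPKM in SCCM, 1.08, 3.21, 6.22 and 3.63 FPKM in PGE2, and 2.39, 2.62 and 1.00 FPKM in untreated libraries. Every SCCM library was above every untreated one, with the gap between SCCM replicate 1 and untreated replicate 2 the smallest. The change for SCCM was 0.94 ± 0.40 (SE, 95% interval 0.07 to 1.81, unadjusted p = 0.037, adjusted p = 0.357), and 0.81 without the 4 libraries; for PGE2 it was 0.51 ± 0.40, and 0.03 without them. Kcnmb4 made up 45.0% to 56.6% of the BK sum in SCCM, 18.9% to 51.4% in PGE2 and 23.5% to 41.3% in untreated libraries. Kcnmb1, the smooth muscle beta subunit, was listed at 0 in 10 libraries and at 0.02 FPKM in untreated replicate 1.

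Among small-conductance SK channels, which shape the afterhyperpolarisation, Kcnn1 was the leading gene. Kcnn1 had 2.42, 1.21, 0.90 and 2.40 FPKM in SCCM, 3.24, 2.84, 1.76 and 0.80 FPKM in PGE2, and 3.35, 2.91 and 2.47 FPKM in untreated libraries. All SCCM libraries were below all untreated ones, replicates 1 and 4 by at most 0.07 FPKM, and the lowest values were those of the 4 libraries in which most other genes were high. The change for SCCM was -0.56 ± 0.32 (SE, unadjusted p = 0.107, adjusted p = 0.377), and -0.19 without the 4 libraries. It is the only gene of the list with all SCCM libraries lower, where 5.87% of all genes had that order; 2 genes (Kcnmb4, and Kcnt1, which passed the filter through SCCM) had all SCCM libraries higher, where 4.72% of all genes did. Kcnn3 had 1.27, 0.13, 0.05 and 0.17 FPKM in SCCM, 0.69, 1.31, 0.17 and 0.07 FPKM in PGE2, and 1.00, 1.21 and 0.88 FPKM in untreated libraries. It was below the filter and has no test, and its values at or under 0.17 were those of the same 4 libraries and SCCM replicate 4. Kcnn2 reached at most 0.56 FPKM.

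The sodium-activated channels, whose slow current follows sodium entry, differed in order between their genes. Kcnt1 had 1.19, 1.32, 2.07 and 1.43 FPKM in SCCM, 0.49, 0.62, 0.87 and 1.17 FPKM in PGE2, and 1.07, 0.86 and 0.49 FPKM in untreated libraries. Every SCCM library was above every PGE2 and every untreated one, by 0.02 FPKM at the closest. Kcnt1 passed the filter through its SCCM level alone (means of 1.5 FPKM in SCCM, 0.79 in PGE2 and 0.81 in untreated libraries), which favoured a higher SCCM value, so its order is a description and no test is given. Kcnt2 had 0.64, 2.24, 1.85 and 0.94 FPKM in SCCM, 0.60, 1.10, 2.08 and 2.21 FPKM in PGE2, and 0.58, 0.73 and 0.46 FPKM in untreated libraries. Its SCCM and PGE2 values overlapped each other and the untreated ones. Kcnt2 made up 35.0% to 62.9% of the sum of both genes in SCCM libraries. Its share was 55.05% to 70.5% in PGE2 and 35.2% to 48.4% in untreated libraries. These shares are a description only, as Kcnt2 passed the filter through the treated groups and was added after its values were seen. For SCCM against PGE2, groups did not overlap in 2 of 29 genes, both higher: Kcnt1, which passed the filter through SCCM, and Kcnh1. Of all genes, 1.59% were higher that way and 0.619% lower. Groups did not overlap in 4 of 29 genes for PGE2 against untreated (Dpp6, Dpp10, Kcnab2 and Kcnip3, all higher). Of all genes, 1.75% were higher that way and 3.58% lower.

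Electrically silent subunits, which form no channel alone and modify Kv2 channels, were the lowest family per gene. Kcng2 averaged 2.02 ± 1.27 FPKM in SCCM, 2.20 ± 1.30 in PGE2 and 1.55 ± 0.82 in untreated libraries. Kcns3 averaged 1.49 ± 0.67 FPKM in SCCM, 1.87 ± 1.30 in PGE2 and 0.96 ± 0.08 in untreated libraries. The other 6 did not enter the test: Kcns1 reached at most 1.12 FPKM, Kcng3 0.89, Kcnf1 0.70, Kcng1 0.37, Kcns2 0.22 and Kcng4 0.05.

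**Figure D5:**
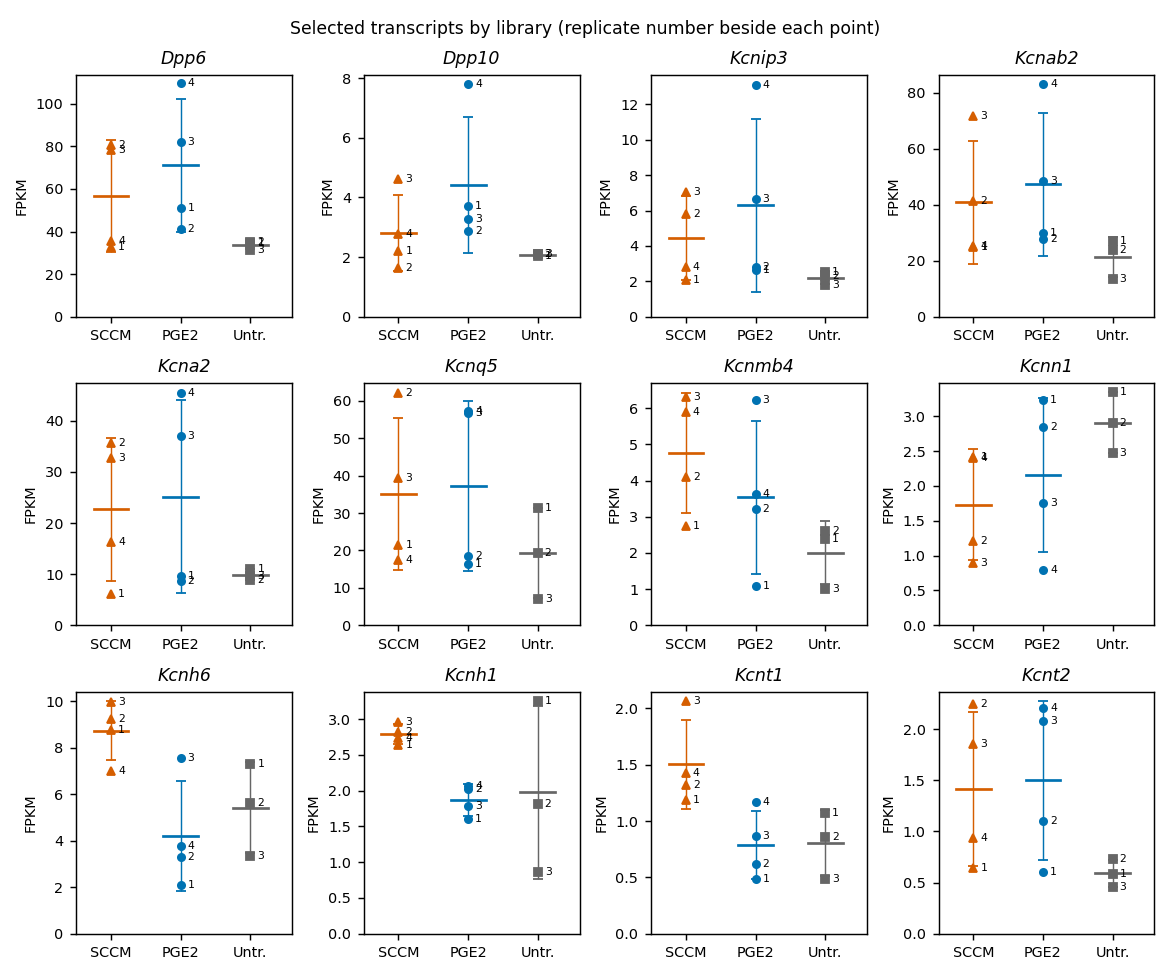
FPKM of 12 genes by group, each point a library with its replicate number; horizontal lines are group means and bars 1 SD (n = 4 for SCCM and PGE2, n = 3 for untreated). The SCCM points of Kcnt1 lie above all others, those of Kcnh1 lie above all PGE2 points, and in Dpp6, Kcnip3 and Kcna2 the points 2 and 3 of SCCM and 3 and 4 of PGE2 are the high ones.

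Other genes of the pathway were counted from 3 lists. Of 27 other potassium channel subunits, 10 were tested and 0 called in any comparison; 6 of 10 changes were positive in each comparison, with medians of 0.16 for SCCM against untreated, 0.03 for PGE2 against untreated and 0.02 for SCCM against PGE2. Amigo1, the membrane partner of Kv2 channels, averaged 19.9 FPKM in SCCM, 9.79 in PGE2 and 12.7 in untreated libraries. Its difference of SCCM from PGE2 was 0.93 ± 0.24 (SE, unadjusted p = 0.0026, adjusted p = 1.00) with no overlap. Lrrc55, a BK gamma subunit, differed by 0.92 ± 0.45 for SCCM against untreated (adjusted p = 0.357) with no overlap. Kcna7, a Kv1 gene best known from muscle, averaged 0.82 FPKM in SCCM, 0.77 in PGE2 and 1.61 in untreated libraries. It passed the filter through its untreated level alone, which favoured a lower PGE2 value. Its change of -0.64 ± 0.36 for PGE2 against untreated is therefore a description, and no test is given. Of 16 inward rectifier genes, 7 were tested and 0 called, with 2, 2 and 4 positive changes in the 3 comparisons in the same order. Kcnj14 differed by -0.66 ± 0.36 for PGE2 against untreated, Kcnj6 by -0.33 ± 0.18 for SCCM against PGE2, and Abcc8, the sulfonylurea receptor gene, by 0.42 ± 0.26 for PGE2 against untreated. The medians of the inward rectifiers were -0.18, -0.29 and 0.08, where those of the 29 voltage- and calcium-gated genes and partners were 0.36, 0.46 and -0.06.

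Of 25 genes that anchor or cluster channels in the axon, 22 were tested and 0 called, and 18, 19 and 8 changes were positive, with medians of 0.52, 0.64 and -0.04. Cntnap1, the Caspr gene of the paranodal junction, averaged 55.6 FPKM in SCCM, 43.0 in PGE2 and 23.0 in untreated libraries. Its change for SCCM was 1.25 ± 0.36 (SE, unadjusted p = 0.0053, adjusted p = 0.357) and all SCCM libraries were above the untreated ones. Cntn1, which pairs with Caspr, differed by 0.88 ± 0.31 for PGE2 against untreated (unadjusted p = 0.016, adjusted p = 0.538) with overlap. Ank3, the ankyrin G gene that holds channels at the axon initial segment and nodes, differed by 1.08 ± 0.44 for SCCM against untreated (unadjusted p = 0.030, adjusted p = 0.357) with overlap. The anchoring sum was highest in the 4 libraries at the positive end of the first component, 1036 to 1140 FPKM, against 584 to 839 FPKM in the other 7.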

How the data were processed

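RNA with integrity numbers above 8 was sequenced from poly-A enriched, stranded libraries of 11 cultures, per the labels' protocols. The authors deposited FPKM values, 1 column per library. The build is Rnor 6.0, per the submitters' processing notes, while aligner, counting tool and annotation are not given in the sources at hand. Read totals are unknown, so no counting interval was set. Lines without values (207489) were left out, and 2 names had become dates.

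Genes were matched by symbol (42 of 42 in the RefSeq table for GRCr8). Values were transformed as log2(FPKM + 1), filtered at a mean of 1 FPKM and fitted in a single limma model (limma 3.58.1, R 4.3.3, trended eBayes, two-sided moderated tests). The model was also run on simulated data, with noise drawn separately for each gene and library. Those data lack the library differences that many genes share here, so they cannot show how the model handles them. Genes, lists and tests were chosen with earlier results of these data known. Library values are given for the 5 lowest p in each comparison and the 12 highest means, and for up to 3 genes of lowest p per other list the changes; Kcnn1, Kcnn3 and Kcnt2 were added after their values were seen. Alternatives were a pseudocount of 0.1, no filter, median-ratio scaling, fits of only the groups compared, a replicate block and each library left out in turn; leaving out 4 libraries was added after seeing the data. No pair among the 55 pairs of libraries was identical.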

Additional observations from a re-analysis of the deposited data

Results flagged for a closer look

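Within a treatment group, 2 values stood apart by Dixon's test at 95%, of 58 groups of 4 libraries checked, where chance flags about 1 in 20. Dpp10, a Kv4 partner, had 7.81 FPKM in PGE2 replicate 4, and this library's gap to the next was 0.832 of the group's range. Kcnc2, a Kv3 pore subunit, had 1.34 FPKM in PGE2 replicate 3, with a gap of 0.909 of a range that spanned only 1.01 to 1.34 FPKM. The causes were not tested.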

How the results depend on the processing

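No setting called any of the 29 genes. Genes higher at an unadjusted p under 0.05 for SCCM against untreated, 1 as reported, numbered 2 with no filter, 2 with median-ratio scaling, 3 with only these groups fitted, 0 with the replicate block and 0 without the 4 libraries at the positive end of the first component. For PGE2 against untreated, 4 became 0 with the block and 1 without the 4 libraries, which also left 1 lower (0 as reported) and a median of 0.045 (0.46 as reported). For SCCM against PGE2, 2 became 1 with median-ratio scaling, with the block and without the 4 libraries, and positive changes numbered 19 of 42 with no filter.

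Leaving out each library gave 0 to 5 higher, 0 to 1 lower, 22 to 27 positive and medians of 0.25 to 0.62 for SCCM against untreated; 0 were higher without SCCM replicate 2 or 3 or untreated replicate 3, 5 without SCCM replicate 1 or untreated replicate 1, and the medians at the ends came without untreated replicates 3 and 1. It gave 0 to 7, 0 to 1, 20 to 25 and 0.23 to 0.63 for PGE2 against untreated, with 0 higher without PGE2 replicate 4 or untreated replicate 2 or 3, 7 without PGE2 replicate 2, and the lowest median without untreated replicate 3. It gave 1 to 3, 0 to 1, 9 to 18 and -0.24 to 0.10 for SCCM against PGE2, with 1 higher without SCCM replicate 3 or PGE2 replicate 1 or 2, and 18 positive without PGE2 replicate 4. Called genes numbered 0 in each of these fits. Mean summed levels ran from 449 to 557 FPKM in SCCM, 496 to 621 in PGE2 and 292 to 412 in untreated libraries.

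Median-ratio scaling moved the median of all genes from -0.13 to -0.03 and from -0.16 to -0.04 in the comparisons with untreated, gave positive changes in 26, 27 and 11 of 29 genes in the 3 comparisons, and turned Kcnc1 for PGE2 against untreated to 0.12. Without the 4 libraries, signs turned for SCCM against untreated in Kcnab1 (-0.054) and Kcnd1 (-0.048), for PGE2 against untreated in Kcna6 (-0.057), Kcnd1 (-0.042) and Kcna2 (-0.10), and for SCCM against PGE2 in Kcnq5 (0.14), Kcna2 (0.13) and Kcnh2 (-0.0034). Leaving out 1 library turned the sign of Kcnab1 (-0.099 to 0.68) and Kcna1 (-0.13 to 0.62) for SCCM against untreated, both without untreated replicate 3. It also turned Kcnc1 (-0.17 to 0.23) and Kcnh2 (-0.28 to 0.30) for PGE2 against untreated. For SCCM against PGE2 it turned Kcnq5 (-0.36 to 0.25), Kcna2 (-0.43 to 0.43), Kcna6 (-0.15 to 0.35), Kcnd1 (-0.34 to 0.11) and Kcnab2 (-0.51 to 0.11). The causes were not tested.

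Replicate numbers are shared across groups. Same-numbered libraries correlated between -0.51 and 0.49, and 2 of 20 checks matched a library best with its own number. These values cannot tell whether same-numbered cultures came from the same experiment, and the labels give only the number. The replicate block left 0 genes called.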
